A study of Mus musculus with 10 samples.

Results

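The nicotinic acetylcholine receptor subunits described here are 10 neuronal genes, Chrna2, Chrna3, Chrna4, Chrna5, Chrna6, Chrna7, Chrna10, Chrnb2, Chrnb3 and Chrnb4, of the 32531 gene symbols counted in each library. They were chosen by name, and each was read in all 10 libraries as its count and as its count scaled to the library's total of gene counts (CPM, counts per 1000000 gene counts). RNA came from whole striatum of adult Chat-TRAP DW167 mice, which carry a ribosomal protein Rpl10a fused to EGFP in Chat-expressing cells. Ribosomes with the tag were pulled out with antibodies to EGFP, giving 3 immunopurified libraries from mice that self-administered cocaine, 3 from yoked controls and 3 from mice that self-administered saline. A single further library held total RNA of saline animals that had not been immunopurified, called the input. All 4 groups share the mouse line and the tissue. The labels do not say what the yoked animals received, nor whether a library holds 1 animal or a pool, so p-values measure only the spread between these libraries.

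Nicotinic receptors are cation channels of 5 subunits that open when acetylcholine binds. Alpha subunits carry most of the binding site, Chrna7 can form a receptor by itself, and the product of Chrna4 joins that of Chrnb2 in the most common receptor of the brain. Chrna6 and Chrnb3 are known for receptors on dopamine axons, which enter the striatum from the midbrain, where their messenger RNA is made. Chrna3, Chrna5 and Chrnb4 lie side by side in the genome and are known from autonomic ganglia and the medial habenula. Striatal cholinergic neurons release the acetylcholine that these receptors detect, so receptors on these neurons themselves would sense their own transmitter.

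Gene counts per immunopurified library ran from 24526765 to 75220922, and the input held 40912230. The marker lists were chosen with earlier results of these data known, so they give no independent check. The 8 cholinergic markers, among them Chat, Slc18a3 and Slc5a7, were all at least 2-fold above the input in all 3 saline libraries. Of these, Gbx2 had enough counts for a ratio in the saline libraries alone, so nothing is read from its being above. Their median log2 ratio to the input lay between 5.57 and 5.93 over the 9 immunopurified libraries. Of 49 markers of other cell types, the median lay between −3.60 and −2.54. Some of the 49, such as Cldn5, had enough counts for a ratio in the input alone, so nothing is read from their own low ratios. Lane 4 held the cocaine and yoked libraries, lane 3 the saline ones and lane 5 the input, and against saline or the input a difference of lane cannot be told apart from one of group.

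The upstream sequences of the 3 subunits on which most values below rest are printed here with their places in the genome, because these genes differed in how their RNA stood against the input. Each runs over the 250 bases before a RefSeq transcript start (build GRCm38.p6, the assembly also known as mm10), read 5′ to 3′ on the gene's strand. The window of Chrna4 lies inside the span of the gene, before a transcript start within it. Those of Chrnb2 and Chrna7 lie just outside their genes. Capitals mark GC boxes, the letters GGGCGG or their reverse complement CCGCCC.
Chrnb2, chr3:89764633-89764882, minus strand: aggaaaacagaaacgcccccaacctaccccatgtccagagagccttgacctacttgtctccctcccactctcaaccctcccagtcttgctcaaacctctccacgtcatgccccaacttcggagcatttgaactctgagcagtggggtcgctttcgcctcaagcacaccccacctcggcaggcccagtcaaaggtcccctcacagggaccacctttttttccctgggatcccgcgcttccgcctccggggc
Chrna4, chr2:181039178-181039427, minus strand: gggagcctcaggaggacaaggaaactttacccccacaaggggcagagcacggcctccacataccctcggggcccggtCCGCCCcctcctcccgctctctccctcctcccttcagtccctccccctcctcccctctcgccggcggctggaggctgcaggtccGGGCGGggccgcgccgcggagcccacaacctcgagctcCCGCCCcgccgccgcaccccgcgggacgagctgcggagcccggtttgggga
Chrna7, chr7:63212527-63212776, minus strand: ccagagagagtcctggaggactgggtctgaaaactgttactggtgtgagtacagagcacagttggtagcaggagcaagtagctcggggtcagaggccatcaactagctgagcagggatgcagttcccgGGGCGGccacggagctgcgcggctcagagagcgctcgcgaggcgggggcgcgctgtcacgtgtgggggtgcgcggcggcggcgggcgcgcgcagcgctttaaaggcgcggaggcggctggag

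A GC box stood in 4 of the 8 windows of the subunits, those of Chrna3 (1 box), Chrna4 (3 boxes), Chrna7 (1 box) and 1 of the windows of Chrna5 (4 boxes), and 32.7% of all 32851 promoter windows hold at least 1. The printed window of Chrnb2 holds none. CpG pairs numbered 24 before Chrna4, 25 before Chrna7 and 10 before Chrnb2, against a median of 6 over all windows. Of the 10 subunits, 7 had a window in the table, Chrna5 with 2, and Chrna2, Chrna6 and Chrnb3 had none. The fewest CpG pairs, 1, stood before Chrna10. The homeodomain core TAATTA, searched because cholinergic neurons depend on LIM homeodomain factors, was in none of the 8 windows, and 4.84% of all windows hold it on either strand. These letter counts describe the windows and were not related to the levels.

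Setting immunopurified RNA beside total RNA asks which subunits make up more or less of the RNA on cholinergic ribosomes than of total striatal RNA. Among the 6 subunits with enough counts for a ratio (at least 20 in the input or in the mean saline library), Chrnb2 was above the input and Chrna4, Chrna5 and Chrnb4 were below it. Each of these 4 passed 2-fold in all 3 saline libraries. Chrna5 and Chrnb4 had enough counts in the input alone, so the count minimum let them in only where they were high and nothing is read from their being below. Chrna4 had enough counts on both sides, and so did Chrnb2. Over all 15888 genes measured in this way, 12.2% passed 2-fold upward and 23.1% passed 2-fold downward, and these shares stand beside 1 of 6 and 3 of 6 subunits. At 4-fold none of the 6 was above, where 3.56% of all genes were, and 12.9% of all genes were below, with Chrna5 the one subunit there, again measured through the input alone. The input is 1 library and no test was made against it. In such bulk RNA, fewer cells of a type and less RNA per cell cannot be told apart. Nor can a difference between cell types be told apart from one between ribosome-bound and total RNA.

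Chrnb2 (chromosome 3, 89753448 to 89764632), the common beta subunit of the brain, measured 74.9, 98.1 and 67.3 CPM in the cocaine libraries 1 to 3. It measured 57.0, 94.7 and 72.0 CPM in the yoked libraries, 57.6, 103.9 and 75.2 CPM in the saline libraries and 28.5 CPM in the input, where the 95% Poisson counting interval was 26.9 to 30.2 CPM. All 9 immunopurified libraries lay above the input, by 1.997-fold to 3.64-fold. The mean log2 ratio was 1.42 ± 0.43 in the saline libraries (SD, n = 3), or 2.68-fold. The cocaine libraries gave 1.47 ± 0.28 and the yoked libraries 1.35 ± 0.37, where library 1 was the lowest of all. The cholinergic markers named above stood far higher, with Chat at 54.2-fold and Slc5a7 at 39.6-fold over the input in the saline libraries.

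Chrna4 (chromosome 2, 181022311 to 181043579), the usual alpha partner of Chrnb2, went the other way. It measured 12.8, 5.97 and 6.28 CPM in the cocaine libraries, 3.75, 6.78 and 9.54 CPM in the yoked libraries, 4.02, 8.46 and 10.7 CPM in the saline libraries and 32.0 CPM in the input (interval 30.3 to 33.8 CPM). Every immunopurified library was below the input, by 2.51-fold to 8.55-fold. The mean log2 ratio in the saline libraries was −2.17 ± 0.74 (SD, n = 3), or 4.49-fold lower. The cocaine libraries gave −2.03 ± 0.61 and the yoked libraries −2.36 ± 0.68.

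The reads of both genes can be set against each other within a library, where depth cancels. There were 5.87 to 16.4 reads of Chrnb2 for each read of Chrna4 in the 9 immunopurified libraries and 0.891 in the input, a shift of 2.72 to 4.21 on the log2 scale. Reads per gene also depend on transcript length, and exon lengths were not used here, so these ratios compare immunopurified with input RNA and do not rank the subunits. For the same reason no order of levels between subunits is given.

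The shift showed in the make-up of the nicotinic reads. Chrnb2 gave 86.7% ± 3.6 of all reads of the 10 subunits in the cocaine group, 84.6% ± 5.6 in the yoked libraries and 85.6% ± 4.6 in the saline libraries (SD, n = 3 each). In the input its share was 39.1% (95% Wilson interval 37.4 to 40.9, from 2984 reads). Chrna4 gave 9.27% ± 4.55, 7.48% ± 2.54 and 8.28% ± 2.98 of the reads in the cocaine, yoked and saline libraries and 43.9% in the input (interval 42.2 to 45.7). The summed level of the 10 subunits was 92.0 ± 14.7 CPM in cocaine, 88.6 ± 23.4 CPM in yoked and 93.0 ± 30.7 CPM in saline libraries, with 72.9 CPM in the input. The input thus lay inside the range of the immunopurified libraries, 63.4 to 124.7 CPM, in the summed level and outside it in the shares of Chrnb2 and Chrna4.

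Chrna7 (chromosome 7, 63098692 to 63212526), the subunit of the calcium-permeable homomeric receptor, measured 1.22, 1.95 and 4.31 CPM in the cocaine libraries. It measured 0.891, 7.01 and 5.90 CPM in the yoked libraries, 1.37, 5.06 and 3.87 CPM in the saline libraries and 9.09 CPM in the input (interval 8.19 to 10.1 CPM). All 9 libraries were below the input, by 1.30-fold to 10.2-fold. Saline library 2 stayed within 2-fold of it, so the gene was not counted as below, and the mean log2 ratio in saline was −1.60 ± 0.998 (SD, n = 3).

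Chrna5, Chrna3 and Chrnb4 are neighbours on chromosome 9, at 54980827 to 55011420, 55010117 to 55026562 and 55028154 to 55048953. Chrna5 and Chrna3 overlap over 1304 bases, and the counting is not stated to use strand, so reads there cannot be told apart. Chrna5, an accessory alpha subunit, had 2, 0 and 2 counts in cocaine libraries, 0, 0 and 4 in yoked libraries, 0 in each saline library and 28 in the input. With a count of 0 read as at most 3 counts per library, it was at least 5.84-fold, 7.17-fold and 9.60-fold lower in saline libraries 1 to 3 than in the input. Such floors and intervals cover counting error only. Because Chrna5 passed the count minimum through the input alone, nothing is read from these folds.

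Chrnb4, the beta partner of ganglionic receptors, had 0, 82 and 2 counts in cocaine libraries, 22, 3 and 24 in yoked libraries, 0, 9 and 11 in the saline libraries and 42 in the input. As CPM this was 0, 1.09 and 0.0678 in cocaine, 0.400, 0.0988 and 0.874 in yoked, 0, 0.286 and 0.261 in saline and 1.03 in the input. Saline library 1 was at least 8.76-fold below the input, with its count of 0 read as 3, and saline library 3 was 3.93-fold below it. Nothing is read from these folds, since beside the saline libraries only the input let Chrnb4 pass the count minimum. Cocaine library 2 alone reached the input level. Chrna3, the alpha partner of Chrnb4, had 0, 31 and 9 counts in cocaine libraries, 24, 21 and 18 in yoked libraries, 3, 0 and 22 in the saline libraries and 19 in the input, too few for a ratio by the rule above. Its highest level was 0.692 CPM in yoked library 2, and the input held 0.464 CPM (interval 0.280 to 0.725).

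Chrnb3 (chromosome 8, 27368711 to 27399730), an accessory beta subunit, had 1, 29 and 20 counts in cocaine libraries, 59, 29 and 33 in yoked libraries, 5, 220 and 22 in the saline libraries and 27 in the input. Saline library 2 stood apart, at 7.00 CPM, while the other 8 immunopurified libraries ran from 0.0408 to 1.20 CPM and the input held 0.660 CPM (interval 0.435 to 0.960). Chrna6 (chromosome 8, 27403212 to 27413944), the neighbouring gene and usual partner of Chrnb3 in dopamine neurons, had 0 counts in that library. Across all 10 libraries Chrna6 had 1 count, in saline library 1, and its limit at 3 counts in the input is 0.0733 CPM. Of the dopamine neuron markers in saline library 2, Th was at 7.32 CPM and Slc18a2 at 11.1 CPM, both inside the range of the other libraries. Ddc, which makes dopamine from its precursor, was at 0.0636 CPM, the lowest of the 9 immunopurified libraries, where the others ran from 0.0988 to 2.69 CPM. Slc6a3, the dopamine transporter, and the midbrain factors En1 and Pitx3 were at 0. The summed level of these 6 markers (Th, Slc18a2, Ddc, Slc6a3, En1 and Pitx3) ran from 24.1 to 27.2 CPM in cocaine, 20.2 to 33.6 in yoked and 18.5 to 25.4 in saline libraries, with 18.7 CPM in the input. In saline library 2 the medial habenula marker Nwd2 was at 13.5 CPM and the cortical marker Neurod6 at 6.59 CPM, each the highest of the 9. The habenula marker Gpr151 was the lowest of the 9 there, at 0.0955 CPM. Pou4f1, also of the habenula, and the other cortical markers lay inside the range of the other libraries. The part that RNA of other cells has in the Chrnb3 value was not tested.

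Chrna2 and Chrna10 were close to the floor. Chrna2 (chromosome 14, 66133236 to 66152948), a subunit known from a few interneuron types, had 0 counts in cocaine libraries, 6, 0 and 27 in yoked libraries, 0 in the saline libraries and 15 in the input. Chrna10 (chromosome 7, 102111260 to 102116971), known from cochlear hair cells, had 0 in cocaine libraries, 3, 1 and 11 in yoked libraries, 2, 0 and 0 in the saline libraries and 2 in the input. Its whole span lies inside Art1 in the reference, so its reads may not be told apart from those of that gene. Yoked library 3 held the most reads of both.

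**Figure D1:**
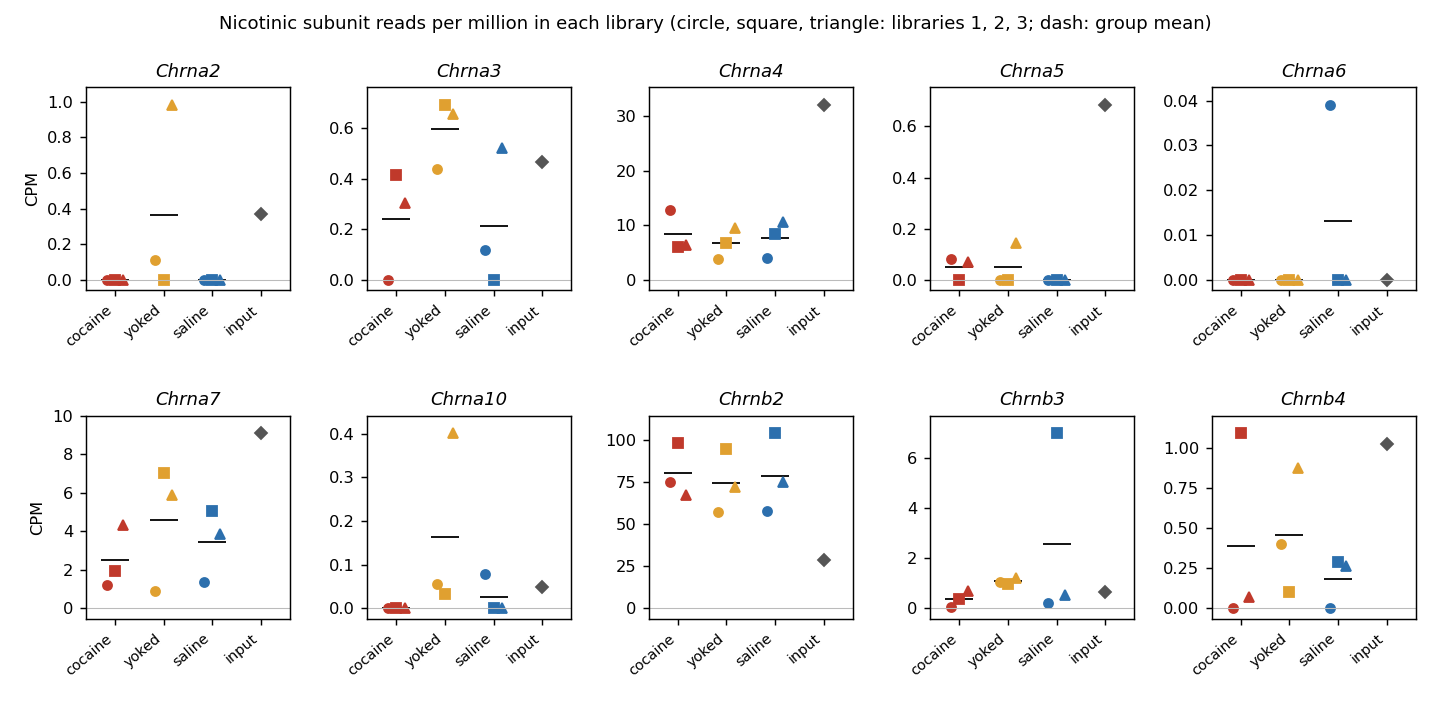
Level of each of the 10 subunits as CPM (vertical axis, linear and different for each panel) in the cocaine, yoked and saline immunopurified libraries and in the input (diamond). Circles, squares and triangles are libraries 1, 2 and 3 and the dash is the mean of 3, and Chrnb2 is the subunit with all 9 immunopurified libraries above the input, which held 28.5 CPM.

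The part that RNA of other cells has in the low values was not tested, and the following values stand beside them. Log2 ratios of the 49 other-cell markers, some of them measured through the input alone, were taken in each library. Between 18 and 45 of the 49 lay below Chrna4 in the 9 libraries, and in yoked library 1 and saline library 1 Chrna4 was 0.37 and 0.30 below their median on the log2 scale. Between 16 and 46 lay below Chrna7, which was under the marker median in cocaine, yoked and saline library 1 and above it in the other 6. Between 47 and 49 of the 49 lay below Chrnb2. The 11 markers of spiny projection neurons, the main cell type of the striatum, summed to 671 to 1405 CPM in cocaine, 925 to 1229 CPM in yoked and 657 to 1559 CPM in saline libraries, against 7521 CPM in the input, and none of them was at 0 throughout a group.

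Medians of the log2 ratio in the saline libraries, by list, were −3.04 for spiny projection neurons, −3.83 for other striatal interneurons, −4.67 for cortical glutamatergic neurons and −3.08 for astrocytes. They were −3.39 for oligodendrocytes, −3.50 for their precursors, −3.79 for microglia and −3.03 for endothelial cells. The medians of other interneurons, precursors and endothelial cells fell on Calb2, Cspg4 and Cldn5. These genes passed the count minimum through the input alone, so nothing is read from those medians. Lhx6, 1 of the 7 interneuron markers, and Pdgfra, 1 of the 3 precursor markers, went the other way. Their log2 ratios in the saline libraries were 2.08 ± 0.44 and 1.35 ± 0.17 (SD, n = 3). Both were above the input in all 9 immunopurified libraries. The 2 measured markers of the medial habenula, a region rich in Chrna3 and Chrnb4, had a median of −1.28, and the 3 measured markers of dopamine neurons one of 0.23. Over all measured genes the median was −0.20.

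**Figure D2:**
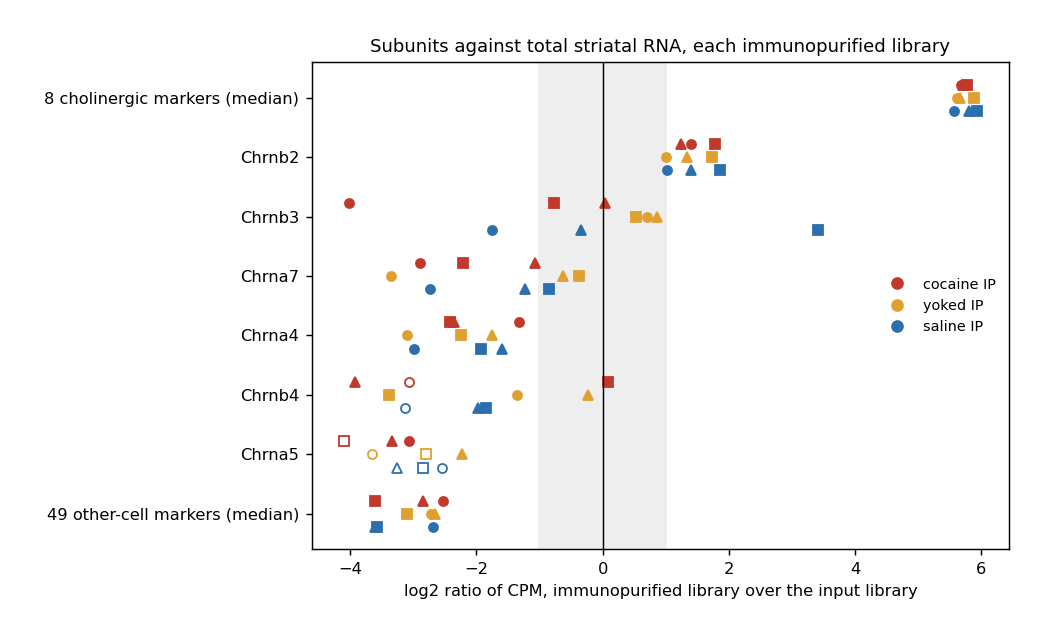
Log2 ratio of CPM in each immunopurified library to the input (horizontal axis) for the 6 measured subunits, with the median of 8 cholinergic markers above them and of 49 markers of other cell types below them. Colours are treatment groups, circles, squares and triangles are libraries 1, 2 and 3, open symbols are counts of 0 read as 3 counts, and the grey band is within 2-fold. Chrnb2 sits between 0.998 and 1.86, and Chrna4 between −3.10 and −1.33.

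The treatment comparisons asked whether the subunits on cholinergic ribosomes differ after cocaine self-administration, against saline self-administration and against yoked controls. No subunit passed in any of the 3 comparisons. The 6 subunits with enough reads to test were Chrna3, Chrna4, Chrna7, Chrnb2, Chrnb3 and Chrnb4, and the other 4 fell under the filter on low counts. By edgeR's quasi-likelihood test with Benjamini-Hochberg adjustment over 14989 genes, 0 of 6 were called each time, and over all genes the share called was 0%. DESeq2 and limma voom with library weights also called 0 of the 6. The fit left out the library numbers, although yoked and saline libraries of the same number deviated together. The intervals and p-values below are therefore unpaired, those of yoked against saline included. At an unadjusted p under 0.05 there was 1 of 6 in cocaine against saline (Chrnb3), 0 in cocaine against yoked and 0 in yoked against saline, beside 5.28%, 2.61% and 2.18% of all genes.

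Chrnb2 had the narrowest intervals. It averaged 80.1 ± 16.1 CPM in cocaine, 74.6 ± 19.0 CPM in yoked and 78.9 ± 23.4 CPM in saline libraries (SD, n = 3), and the groups overlapped. Its log2 fold change was 0.048 in cocaine against saline (95% interval −0.46 to 0.56), 0.16 in cocaine against yoked (−0.36 to 0.67) and −0.11 in yoked against saline (−0.62 to 0.40). Leaving out 1 library at a time turned the sign in each comparison: to −0.14 without cocaine library 2 or saline library 1, to −0.046 without cocaine library 2 against yoked, and to 0.037 and 0.13 without yoked library 1 or saline library 2.

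Chrna4 averaged 8.34 ± 3.84 CPM in cocaine, 6.69 ± 2.90 CPM in yoked and 7.72 ± 3.38 CPM in saline libraries (SD, n = 3). Cocaine library 1, at 12.8 CPM, was the highest of the 9, and the other cocaine libraries lay inside the range of both other groups. The log2 fold change was 0.11 in cocaine against saline (95% interval −0.85 to 1.07), which turned to −0.32 without cocaine library 1 and −0.20 without saline library 1. In cocaine against yoked it was 0.35 (−0.62 to 1.31), and −0.078 without cocaine library 1. In yoked against saline it was −0.24 (−1.20 to 0.72), and 0.041 and 0.093 without yoked library 1 or saline library 3.

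Chrna7 averaged 2.50 ± 1.61 CPM in cocaine, 4.60 ± 3.26 CPM in yoked and 3.43 ± 1.89 CPM in saline libraries (SD, n = 3). The groups overlapped. Its log2 fold change was −0.46 in cocaine against saline (95% interval −1.99 to 1.07), −0.84 in cocaine against yoked (−2.37 to 0.70) and 0.38 in yoked against saline (−1.14 to 1.90). The last of these was −0.0017 without saline library 1.

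Chrnb3 had the smallest p of the members. It averaged 0.368 ± 0.319 CPM in cocaine, 1.08 ± 0.12 CPM in yoked and 2.57 ± 3.84 CPM in saline libraries (SD, n = 3). In cocaine against saline the log2 fold change was −2.75 (95% interval −5.32 to −0.17, adjusted p = 0.850 in edgeR), and without saline library 2 it was 0.024. In yoked against saline it was −1.25 (−3.68 to 1.18), which turned to 1.53 without saline library 2 and to 0.081 with replicate number as a block. In cocaine against yoked it was −1.50 (−3.99 to 0.99), and all 3 cocaine libraries lay below all 3 yoked libraries.

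Chrna3 shared that separation, with 0.239 ± 0.214 CPM in cocaine, 0.594 ± 0.138 CPM in yoked and 0.213 ± 0.274 CPM in saline libraries (SD, n = 3). Its highest cocaine library, at 0.412 CPM, was just below its lowest yoked library, at 0.436 CPM. The log2 fold change in cocaine against yoked was −1.20 (95% interval −4.27 to 1.87, adjusted p = 0.9997 in edgeR). Groups that did not overlap made up 6.78% of all genes in this comparison, and 2 of the 6 subunits. Chrna3 passed the filter on low counts only through the yoked libraries, where it was highest. Nothing is read from its separation or from its part in that count. In cocaine against saline and in yoked against saline, 0 of 6 subunits separated, beside 10.3% and 7.05% of all genes.

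Chrnb4 averaged 0.386 ± 0.611 CPM in cocaine, 0.458 ± 0.391 CPM in yoked and 0.183 ± 0.159 CPM in saline libraries (SD, n = 3). Cocaine library 2 held 82 of the 84 reads in its group. The log2 fold change in cocaine against saline was 1.16 (95% interval −2.22 to 4.54), and −2.27 without cocaine library 2. Across the 6 subunits the median log2 fold change was 0.079 in cocaine against saline, −0.48 in cocaine against yoked and 0.14 in yoked against saline, beside 0.0049, 0.0011 and −0.014 over all genes tested. Chrna3, which passed the filter through the yoked libraries alone, is part of these medians. The saline libraries enter 2 of these comparisons and the cocaine libraries 2, so the comparisons are not independent.

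**Figure D3:**
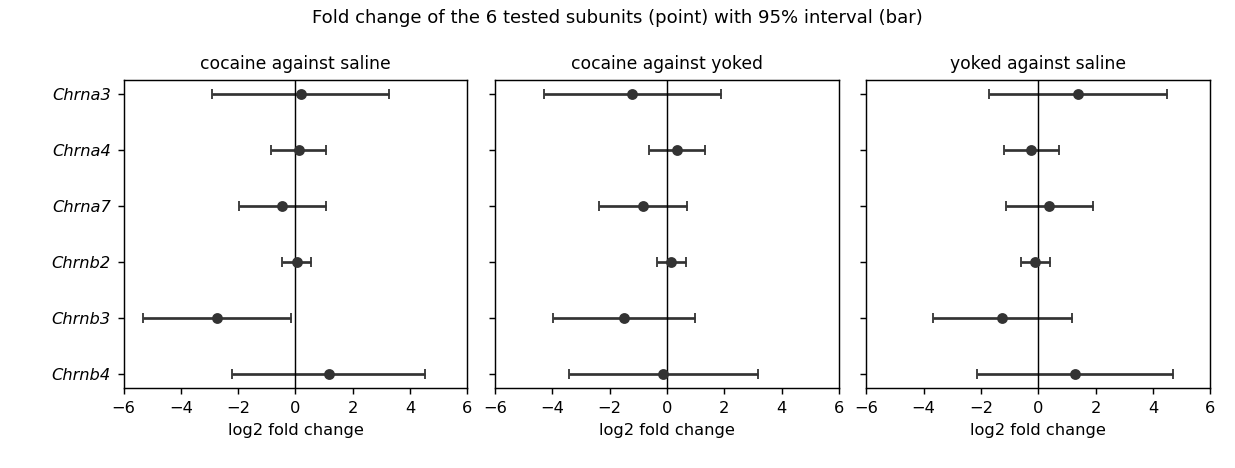
Log2 fold change (horizontal axis, point) with its 95% interval (bar) for the 6 tested subunits in cocaine against saline, cocaine against yoked and yoked against saline, from edgeR. The intervals of Chrnb2 stay within −0.62 to 0.67, while those of Chrna3 and Chrnb4 span more than 5 log2 units in each panel.

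For 2 of the 6 tested subunits, libraries with the same number in the labels stood apart from the rest. Chrnb2 measured 98.9 ± 4.6 CPM in the 3 libraries numbered 2 (SD, n = 3, 1 of each group), 63.2 ± 10.2 CPM in those numbered 1 and 71.5 ± 4.0 CPM in those numbered 3. All 3 libraries numbered 2, from 94.7 to 103.9 CPM, lay above the other 6, from 57.0 to 75.2 CPM. A gene whose libraries numbered 2 lay wholly above or below the rest was not rare, at 10.1% of the 14989 genes.

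Chrna7 measured 1.16 ± 0.24 CPM in the libraries numbered 1 (SD, n = 3), 4.68 ± 2.55 CPM in those numbered 2 and 4.69 ± 1.07 CPM in those numbered 3. The libraries numbered 1, from 0.891 to 1.37 CPM, lay below the other 6, from 1.95 to 7.01 CPM, as 6.08% of all genes lay wholly above or below. The other 4 tested subunits did not separate by number, and no subunit had its libraries numbered 3 apart, as 4.19% of all genes did. The labels name the same index for libraries with the same number, except that none is named for yoked library 2. These patterns were noticed in the levels and were not tested. Within numbers 1, 2 and 3, the log2 difference of cocaine from saline was 0.39, 0.015 and −0.22 for Chrnb2 and −0.11, −1.10 and 0.083 for Chrna7. That of cocaine from yoked was 0.37, 0.21 and −0.13 for Chrnb2 and 0.30, −1.48 and −0.44 for Chrna7. That of yoked from saline was 0.018, −0.19 and −0.089 for Chrnb2 and −0.40, 0.38 and 0.53 for Chrna7.

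**Figure D4:**
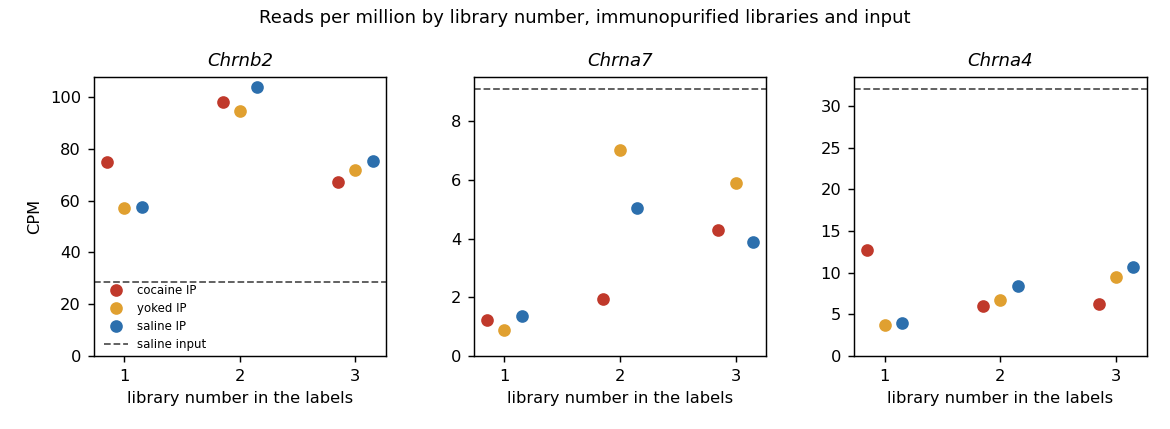
CPM (vertical axis, linear from 0) of Chrnb2, Chrna7 and Chrna4 in the immunopurified libraries by their number in the labels (horizontal axis), coloured by treatment group, with the input as a dashed line. The libraries numbered 2 are the highest for Chrnb2, at 94.7 CPM or more, and those numbered 1 are the lowest for Chrna7, at 1.37 CPM or less.

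Nicotinic subunits need helpers to fold, assemble and reach the membrane, and proteins of the Ly6 family bind the finished receptor. Of 18 such genes in the files, 15 were measured against the input. The count past 2-fold in all 3 saline libraries was 2 of 15 above and 5 of 15 below, where 12.2% and 23.1% of all genes were. Ubxn2a, known to act on the turnover of Chrna3, had a log2 ratio of 1.36 ± 0.10 (SD, n = 3) and averaged 2.56-fold over the input. It measured 202.9, 240.6 and 179.1 CPM in the cocaine, 199.6, 240.1 and 149.6 CPM in the yoked and 217.5, 208.5 and 190.0 CPM in the saline libraries, against 80.0 CPM in the input.

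The Ly6 genes went in different directions. The log2 ratio was 1.25 ± 0.16 for Ly6e and 1.12 ± 0.13 for Ly6h, a brake on receptors of Chrna7, and −3.57 ± 0.33 for Lypd6b (SD, n = 3). Lypd6, a further member of that family, was 8.53-fold below the input, with a log2 ratio of −3.09 ± 0.33. Ywhah, a 14-3-3 protein that binds Chrna4, stood at 0.88 ± 0.16. Rapsn, which clusters the receptor of muscle, stood at −3.42 ± 2.02, and its 60 counts in the input alone let it pass the count minimum. The median of the 15 genes was 0.54, beside −0.20 over all measured genes.

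Of the chaperones best known for Chrna7, Ric3 was above the input in all 9 immunopurified libraries and Tmem35 in 7 of 9. Ric3 measured 89.0, 109.2 and 97.3 CPM in the cocaine, 100.9, 121.6 and 105.9 CPM in the yoked and 90.6, 168.7 and 115.5 CPM in the saline libraries, against 75.5 CPM in the input, a saline log2 ratio of 0.68 ± 0.45 (SD, n = 3). Tmem35, also called NACHO, had a mean log2 ratio of −0.098 ± 0.12 in cocaine, 0.18 ± 0.21 in yoked and 0.34 ± 0.12 in saline libraries (SD, n = 3 each), and cocaine libraries 1 and 2 were below the input. These 2 were described after their values were seen.

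In the treatment comparisons 0 of the 15 tested helper genes were called by edgeR, and 3, 1 and 0 had an unadjusted p under 0.05 in cocaine against saline, cocaine against yoked and yoked against saline, beside 5.28%, 2.61% and 2.18% of all genes. The smallest p values belonged to Canx, Tmem35 and Vsnl1. Tmem35 measured 31.5, 34.7 and 36.9 CPM in the cocaine libraries and 44.6, 51.3 and 44.0 CPM in the saline libraries, without overlap. Its log2 fold change was −0.42 (95% interval −0.79 to −0.050, adjusted p = 0.850 in edgeR). Canx, a general chaperone of the endoplasmic reticulum, measured 286.4, 263.8 and 287.3 CPM in cocaine and 337.7, 411.7 and 345.8 CPM in saline libraries, also without overlap, with a log2 fold change of −0.37 (−0.67 to −0.067, adjusted p = 0.850 in edgeR). These were the 2 of 15 helper genes whose groups separated in cocaine against saline, as 10.3% of all genes did. In cocaine against yoked 3 of 15 separated (Canx, Tmem35 and Rapsn), beside 6.78% of all genes. Rapsn passed the filter only through the cocaine libraries, where it was highest, so nothing is read from its separation. In yoked against saline 2 of 15 separated (Canx and Rer1), beside 7.05% of all genes.

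Vsnl1, a calcium sensor that binds Chrna4, measured 172.6, 360.5 and 149.5 CPM in cocaine, 149.8, 152.0 and 150.5 CPM in yoked and 146.4, 174.9 and 132.1 CPM in saline libraries. The log2 fold change was 0.63 in cocaine against saline (95% interval 0.038 to 1.22, adjusted p = 0.850 in edgeR) and 0.65 in cocaine against yoked (0.057 to 1.24, adjusted p = 0.9997). Without cocaine library 2 these were 0.097 and 0.11. The input held 631.9 CPM of Vsnl1, far above every immunopurified library.

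The genes whose profile over the 10 libraries lay nearest to that of a subunit were taken for the 2 subunits of at least 5 CPM. The measure was the root mean square difference in log2 CPM after centring each gene on its own mean. For Chrnb2 they were Tstd3 (0.11), Iglon5 (0.12) and Tecr (0.12), with a median of 0.55 over 10246 candidate genes. For Chrna4 they were Dpp10 (0.43), Stim2 (0.43) and Cx3cl1 (0.44), with a median of 0.90, so its nearest profiles lay farther off than those of Chrnb2. The measure covers 9 immunopurified libraries and the input together.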

How the data were processed

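RNA was measured in 9 immunopurified and 1 input library of mouse striatum. The authors deposited unnormalized counts of reads for each gene symbol, with a separate table for each library. Per the submitters' processing notes the tools were STAR 2.0.0e and HTSeq and the build mm10, while annotation, strand setting and read filters are not given in the sources used here. Rows that name no gene held 47.6% to 67.4% of all entries per library and were left out. CPM is the count per 1000000 gene counts.

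Groups were compared with edgeR 4.0.16 in R 4.3.3 (quasi-likelihood F-test, robust fit, TMM scaling, filterByExpr with a minimum count of 10 and a minimum total of 15, 9 libraries in 1 fit with 6 residual degrees of freedom). p-values were adjusted by Benjamini-Hochberg over 14989 genes and called under 0.05. The steps were tested on simulated counts. DESeq2 1.42.0, limma 3.58.1, other scalings, no filter, a replicate block and left-out libraries were alternatives. Ratios to the input took a count of 0 as 3 counts per library. Depth set the precision, and the 95% Poisson and Wilson intervals cover counting error only. Same-numbered yoked and saline libraries deviated together from their group means, with correlations of 0.189, 0.159 and 0.122 over genes. All were over the 0.1 asked for, so the numbers met the rule for pairs in that comparison. The main fit left the numbers out, so its intervals and p-values for that comparison are unpaired. The replicate block, which takes the numbers in, was run as an alternative only. The titles carry the numbers.

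The subunits and lists were chosen with earlier results of these data known. The text names all 10 subunits, the helper genes with the 4 smallest p values and the 4 highest and 3 lowest ratios, the cholinergic checks and the 3 nearest profiles. The top input gene of each other marker list was to be named too and is left out, since no result turns on it. Positions come from the RefSeq gene table of GRCm38.p6, which held all 10 subunits, and upstream sequences from RefSeq.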

Additional observations from a re-analysis of the deposited data

How the results depend on the processing

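No subunit was called in any treatment comparison under any of the 14 alternatives run for each, and 219 of 249 alternative log2 fold changes of subunits kept their direction. For the named helper genes all 56 did. Over all genes, with low counts kept in the fit, edgeR called 60 in cocaine against saline, 27 in cocaine against yoked and 18 in yoked against saline, against 0 with the filter. Adjusted p values of the named genes were pooled over the main fit and all alternatives, so over edgeR, DESeq2 and limma voom. They ranged from 0.118 to 1, from 0.18 to 1 and from 0.989 to 1 in these comparisons.

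Signs turned for subunits of low counts or near 0, and also for Chrna7 in cocaine against yoked, where the main value was −0.84. The cause was not tested. With limma voom the log2 fold change turned to −1.06 for Chrna3 and −1.02 for Chrnb4 in cocaine against saline, 0.22 for Chrna7 in cocaine against yoked, and −0.45 for Chrna7 and 1.07 for Chrnb3 in yoked against saline. Without all 3 libraries numbered 2 it was −1.07 for Chrna3, 0.050 for Chrna7 and −1.89 for Chrnb4 in cocaine against saline and 1.63 for Chrnb3 in yoked against saline. With the replicate block it was 0.081 for Chrnb3 in yoked against saline, and the block changed no other direction and no call. In cocaine against saline and cocaine against yoked, same-numbered libraries had correlations of 0.155, 0.0752 and 0.0592 and of 0.156, 0.0796 and 0.165, and as not every one was over 0.1 the numbers were not taken as pairs there, although each library correlated best with its own number.

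Leaving out 1 library at a time turned signs for the following subunits, with ranges, in cocaine against saline, of −0.51 to 2.11 for Chrna3, −0.32 to 0.44 for Chrna4, −0.14 to 0.28 for Chrnb2, −3.40 to 0.024 for Chrnb3 and −2.27 to 1.71 for Chrnb4. In cocaine against yoked they were −0.078 to 0.72 for Chrna4, −0.046 to 0.33 for Chrnb2 and −3.57 to 0.72 for Chrnb4. In yoked against saline they were −0.61 to 0.093 for Chrna4, −0.0017 to 0.87 for Chrna7, −0.29 to 0.13 for Chrnb2 and −1.80 to 1.53 for Chrnb3. The ranges that kept their sign were −1.06 to −0.094 for Chrna7 in cocaine against saline, −1.90 to −0.66 for Chrna3, −1.43 to −0.44 for Chrna7 and −2.14 to −0.997 for Chrnb3 in cocaine against yoked, and 0.81 to 3.31 for Chrna3 and 0.44 to 1.78 for Chrnb4 in yoked against saline. Nothing is read from the ranges of Chrna3, which passed the filter only through the yoked libraries. The fits that leave 2 libraries in a group assume the same spread in every group.

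Against the input, 1 of 6 subunits passed 2-fold upward and 3 downward, beside 12.2% and 23.1% of all genes. Leaving out 1 saline library gave 1 and 3 to 4, beside 2097 to 2299 and 4017 to 4169 of all genes. At 4-fold the counts were 0 and 1, beside 566 and 2045 of all genes. With log2(CPM + 0.5) they were 0 and 2 of 6, and with the cocaine libraries 1 and 3 of 6. With the yoked libraries they were 0 and 2 of 7, since yoked library 1 fell just under 2-fold for Chrnb2. Without the count minimum they were 1 and 4 of 10. The shares of all genes under these settings are not given here, so nothing is read from the counts alone. Chrnb4 was not below with the cocaine libraries, where Chrna7 was in its place, nor with the yoked libraries or log2(CPM + 0.5), while Chrna4 was below in each of these. Chrna5 was below in each too, but it passed the count minimum through the input alone, so nothing is read from that. TMM scaling, which moved the median of all genes by 0.092, left both counts as they were. The mean log2 ratio of Chrna3 turned to 0.33 with the yoked libraries. Levels per exon length were not run. Subunits of under 1 CPM rest on few reads, and their intervals reach past 2 log2 units to each side.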

Other observations

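The 6 muscle-type and remaining nicotinic genes were read as well. Chrnb1, the beta subunit of the muscle receptor, had a count in all 10 libraries and measured 2.28, 0.651 and 1.66 CPM in the cocaine, 2.49, 1.12 and 1.20 CPM in the yoked and 1.68, 1.62 and 1.69 CPM in the saline libraries, against 1.59 CPM in the input, a saline log2 ratio of 0.065 ± 0.030 (SD, n = 3). Chrna1, the muscle alpha subunit, measured between 0.165 and 0.541 CPM in the immunopurified libraries and 0.709 CPM in the input. Chrna9, the partner of Chrna10, had counts in yoked libraries 1 and 3 and in the input, and its highest level was 0.182 CPM in yoked library 3, the library that also held the most reads of Chrna2 and Chrna10. Chrng reached 0.261 CPM in saline library 3 and 0.269 CPM in the input, and Chrnd and Chrne stayed at or below 0.0364 CPM everywhere. Of these, Chrna1 and Chrnb1 had enough reads to test, and 0 of 2 were called by edgeR in each treatment comparison, with 0 at an unadjusted p under 0.05.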
